A study of Homo sapiens with 12 samples.

Results

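The Iroquois homeobox genes IRX1 to IRX6 were followed in RNA from spheroids of 3 DU145 lines. DU145 is an established human prostate cancer cell line. The members are 6 of the 26485 genes of the count table and were found by symbol. The family was chosen by the measured RNA level of IRX3, which was among the most raised genes of the line with restored α2 integrin, so its values in the comparisons with that line are a description and carry no test. Whether the other family members and the chromosomal neighbours moved with it was then examined.

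All 3 lines carry a Crispr/Cas9 knock-out of ITGA2, the gene of the α2 integrin subunit. DU145KO has the knock-out alone, DU145KO+α2 was in addition stably transfected with an α2 integrin cDNA, and DU145KO+vector with the empty vector. Both transfected lines were grown with the drug geneticin, which the paper does not state for DU145KO. In comparisons with DU145KO, any effect of geneticin cannot be told apart from that of transfection. Each line had 4 biological replicates (12 samples), RNA was taken from spheroids of 8000 cells after 72 hours, and unedited DU145 cells were not analysed here. The samples hold 1 line of each kind, so differences between lines that arose while they were made cannot be told apart from effects of the integrin, and whether DU145KO came from a single clone is not given in the sources used here.

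Iroquois genes encode transcription factors with a homeodomain of the TALE class, which is lengthened by a loop of a few amino acids, and a conserved Iro box. They pattern the neural tube, heart, limb and other tissues of the embryo, and in the human genome they lie in a pair of clusters on chromosomes 5 and 16. Genes of a cluster often share regulatory sequence, and IRX3 is also known as a gene that obesity-associated intronic variants of its neighbour FTO act upon. On chromosome 16 (build GRCh38, GENCODE annotation), IRX3 lies on the minus strand at chr16:54283304-54286787, IRX5 on the plus strand at chr16:54930865-54934485 and IRX6 on the plus strand at chr16:55324203-55330756. On chromosome 5, IRX4 lies at chr5:1877413-1887236 (minus strand), IRX2 at chr5:2745845-2751677 (minus strand) and IRX1 at chr5:3595832-3601403 (plus strand). All 6 are protein-coding, and no exon base of theirs was shared with an exon of another gene of the table. The start sites of IRX3 and IRX5 are 644.1 kb apart, and the long noncoding RNA CRNDE starts only 1.7 kb from IRX5, on the opposite strand.

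Promoter sequences are shown for CRNDE, a chromosome 16 neighbour that had reads, and for a pair of chromosome 5 members that gave no read. They are windows of 300 bases, from 250 bases before to 50 bases after a RefSeq start site in GRCh38.p14. Windows were matched for 3 of the 6 members, IRX1, IRX2 and IRX4, and for CRNDE. Those of IRX4 held 36 to 47 CG pairs and are not shown. The capitals mark CG pairs, whose dense runs form CpG islands.
CRNDE (chr16:54928837-54929136, minus strand): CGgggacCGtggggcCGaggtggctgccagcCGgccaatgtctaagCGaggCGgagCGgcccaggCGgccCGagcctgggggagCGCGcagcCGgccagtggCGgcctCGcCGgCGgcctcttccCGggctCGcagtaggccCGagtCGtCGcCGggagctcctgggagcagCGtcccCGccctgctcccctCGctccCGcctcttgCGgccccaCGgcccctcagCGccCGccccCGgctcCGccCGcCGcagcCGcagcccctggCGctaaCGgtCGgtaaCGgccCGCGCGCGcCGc
IRX2 (chr5:2751628-2751927, minus strand): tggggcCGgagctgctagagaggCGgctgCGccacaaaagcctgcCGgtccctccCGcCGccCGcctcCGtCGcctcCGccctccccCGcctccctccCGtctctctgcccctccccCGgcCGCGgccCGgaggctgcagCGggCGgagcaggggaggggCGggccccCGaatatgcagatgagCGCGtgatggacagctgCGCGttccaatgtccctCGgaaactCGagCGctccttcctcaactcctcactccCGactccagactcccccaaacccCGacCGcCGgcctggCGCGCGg
IRX1 (chr5:3595582-3595881, plus strand): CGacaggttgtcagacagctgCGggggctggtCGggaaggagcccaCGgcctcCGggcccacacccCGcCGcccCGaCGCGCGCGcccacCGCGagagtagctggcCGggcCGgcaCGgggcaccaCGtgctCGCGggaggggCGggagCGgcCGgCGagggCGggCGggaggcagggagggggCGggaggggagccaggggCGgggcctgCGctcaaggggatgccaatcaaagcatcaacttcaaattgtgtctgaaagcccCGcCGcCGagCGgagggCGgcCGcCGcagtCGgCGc
The CRNDE window held 44 CG pairs, the IRX2 window 34 and the IRX1 window 38, against a median of 14 over 35116 promoter windows. Of all windows, 95.8% held fewer pairs than CRNDE, 84.4% fewer than IRX2 and 90.1% fewer than IRX1. Thus CG-rich promoters belonged both to a gene with reads and to members without any. The sequence ACANNTGT, which Iroquois homeodomains are known to bind and which reads the same on both strands, occurred in 5.62% of all windows and in none of the 3 shown.

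Sequencing gave between 13948734 and 19988111 counted reads per sample. A gene was taken as detected above 3 counts, equal to 0.150 to 0.215 CPM in the single samples, where CPM is the read count relative to a library size normalized by TMM, a floor that covers counting error only. ITGA2 mRNA averaged 305, 17.6 and 20.7 CPM in DU145KO+α2, DU145KO+vector and DU145KO, with the highest level in the line labelled as carrying the cDNA (edgeR, adjusted p = 3.15e-09 against DU145KO+vector). All 5 epithelial markers were detected in every sample, at a summed level of 859 to 1153 CPM where α2 was restored, 1141 to 1386 CPM with the empty vector and 1210 to 1583 CPM with the knock-out alone. The leukocyte and fibroblast lists had 1 gene each above the floor in every sample.

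The 12 samples held 590 reads of the Iroquois family. IRX3 took 492 of them, IRX5 93 and IRX4 5, and IRX1, IRX2 and IRX6 had no read. IRX3 and IRX5 are neighbours on chromosome 16, so reads in every sample came from 2 of the 3 members of that cluster, with the third at 0. IRX3 made up 80.8% to 90.7% of the family's reads in DU145KO+α2, 70.8% to 94.1% in DU145KO and 50% to 73.3% in DU145KO+vector.

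IRX3, which patterns the ventral neural tube and the heart's conduction system, was the family member with the highest level. Its counts were 59, 67, 100 and 88 in DU145KO+α2, 22, 6, 11 and 7 in DU145KO+vector, and 48, 35, 17 and 32 in DU145KO (replicates 1 to 4). The level was 4.63 ± 1.31, 0.691 ± 0.362 and 2.06 ± 0.878 CPM in the same order (mean ± SD, n = 4 each). Every DU145KO+α2 sample was above every sample of the other lines, whereas DU145KO+vector and DU145KO overlapped through replicate 1 of DU145KO+vector and replicate 3 of DU145KO. The lowest DU145KO+vector count, 6 reads, stood just above the floor.

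**Figure D1:**
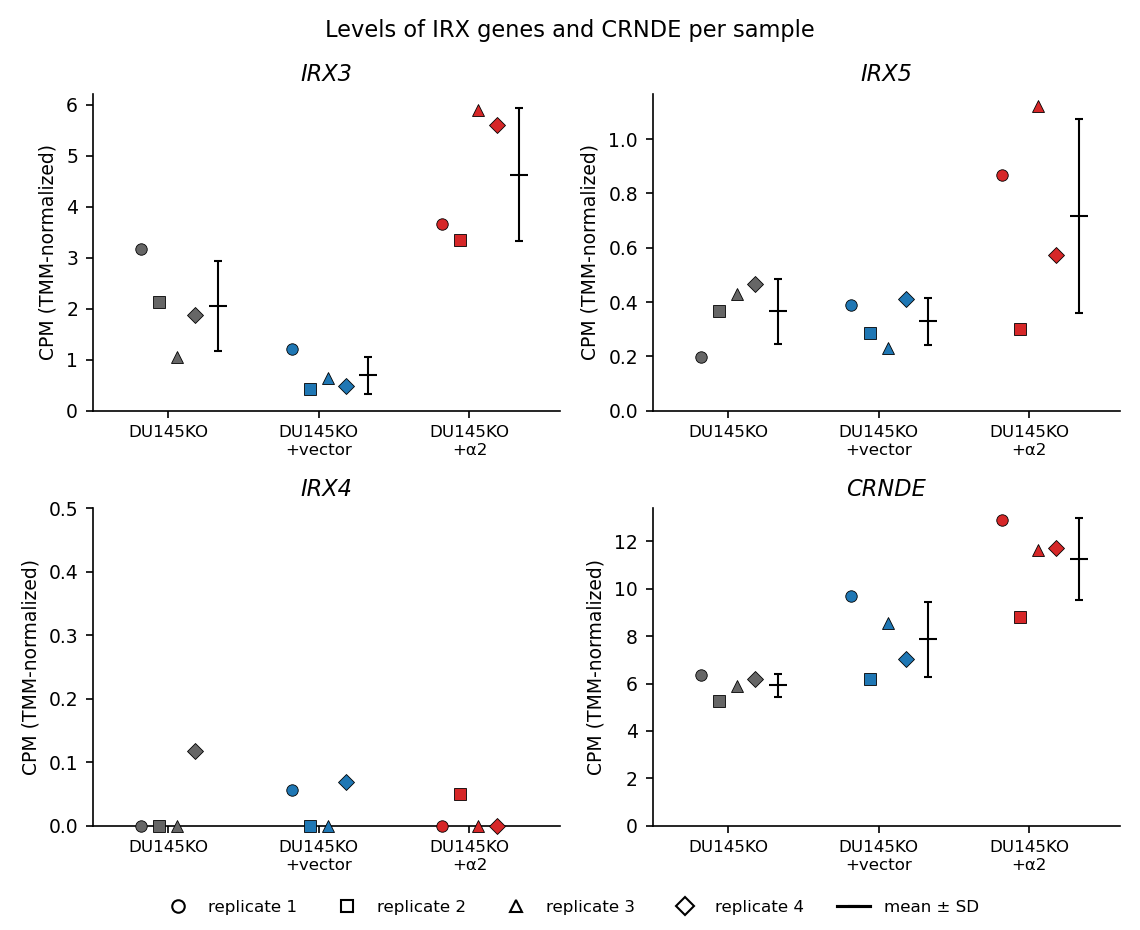
TMM-normalized CPM (linear axes starting at or near 0) of IRX3, IRX5, IRX4 and the neighbour CRNDE in each of the 4 samples of DU145KO, DU145KO+vector and DU145KO+α2, with the mean and SD as bars where drawn. IRX3 was 3.35 to 5.90 CPM in DU145KO+α2 and at most 3.17 CPM elsewhere, the IRX5 groups overlapped, and IRX4 points stand for 0 to 2 reads.

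In DU145KO+α2, IRX3 was 6.43-fold higher than in DU145KO+vector, with a log2 fold change of 2.68 (SE 0.36, 95% interval 1.92 to 3.45), which placed it at rank 6 of 14732 tested genes. Against DU145KO the difference was 2.25-fold, with a log2 fold change of 1.17 (SE 0.31, 95% interval 0.51 to 1.83) and rank 46. These fold changes chose the gene and are given without a test, and both comparisons share the DU145KO+α2 samples. A gene was called when it changed more than 2-fold with an adjusted p below 0.05. IRX3 was the only member with enough reads for the model, so the members called higher were 1 of 1 tested against DU145KO+vector, where 1.38% of all tested genes were called higher, and 1 of 1 against DU145KO, where 0.428% were. Because that count rests on how the gene was chosen, nothing is read from it. Leaving out single samples gave log2 fold changes of 0.95 to 1.46 against DU145KO. The call, from which nothing is read, was lost without replicate 2, 3 or 4 of DU145KO or replicate 3 or 4 of DU145KO+α2. The difference was under 2-fold only without replicate 3 of DU145KO.

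DU145KO+vector was also compared with DU145KO. The DU145KO+vector samples entered the fold change by which IRX3 stood out, and a gene chosen so is more likely to be low in them, so the p-values below are not independent of that choice. IRX3 was 2.86-fold lower in DU145KO+vector (log2 fold change -1.52, SE 0.39, 95% interval -2.33 to -0.70), lower in 4 of 4 pairs with the same replicate number. The adjusted p of edgeR's quasi-likelihood test was 0.0523, so IRX3 was not called, and 0 of 1 tested member was called lower where 0.808% of all tested genes were. With the replicate number as a block, the log2 fold change was -1.52 (SE 0.41) and the adjusted p 0.0287, which is a call. The exact two-sided permutation test of the CPM values gave p = 0.0571, where 0.0286 is the smallest p that 4 against 4 samples allow. Across the alternatives the adjusted p ran from 0.00489 (DESeq2) to 0.157, and it was 0.0205 without replicate 3 of DU145KO and 0.0167 without replicate 1 of DU145KO+vector, the same samples through which the lines overlap. The 3 lines thus stood in the order DU145KO+α2, DU145KO and DU145KO+vector, of which the neighbours DU145KO and DU145KO+vector overlapped.

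IRX5, which acts with IRX3 in heart and craniofacial development, had counts of 14, 6, 19 and 9 in DU145KO+α2, 7, 4, 4 and 6 in DU145KO+vector, and 3, 6, 7 and 8 in DU145KO. The level was 0.716 ± 0.357, 0.329 ± 0.0858 and 0.366 ± 0.119 CPM in the same order (mean ± SD, n = 4 each). Replicates 1 and 3 of DU145KO+α2 were well above all other samples, whereas replicate 2 of that line lay within the range of the others, so the groups overlapped. These counts were too low for the filter of the model, and the CPM values were compared with the exact two-sided permutation test. IRX5 was 2.17 times the DU145KO+vector level in DU145KO+α2 and higher in 4 of 4 numbered pairs, with an exact p of 0.0857. Against DU145KO the ratio was 1.96, higher in 3 of 4 pairs, with an exact p of 0.143. Between DU145KO+vector and DU145KO the ratio was 0.901 and the exact p 0.657. Neither comparison with DU145KO+α2 passed, and both depended on replicate 2 of that line: without it each exact p was 0.0286, the smallest that 3 against 4 samples can give. Without the filter on low counts, the edgeR log2 fold change of IRX5 was 1.09 (SE 0.44, adjusted p = 0.153) against DU145KO+vector and 0.93 (SE 0.43, adjusted p = 0.264) against DU145KO. At 21 to 48 reads per line a doubling of IRX5 was not resolved from the spread between replicates. Over the 12 samples the CPM values of IRX3 and IRX5 had a Pearson r of 0.67 and a Spearman rho of 0.52. This is a description over the 3 lines together, between which a difference in IRX5 was not resolved.

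IRX4, a gene of the ventricular heart muscle, had 0, 1, 0 and 0 counts in DU145KO+α2, 1, 0, 0 and 1 in DU145KO+vector, and 0, 0, 0 and 2 in DU145KO. All values were at or below the floor of 3 counts, and no fold change is given. IRX1 and IRX2, its cluster neighbours and regulators of limb, lung and heart development, and IRX6, which is known from the retina, were at 0 in all 12 samples. Over the 197611950 counted reads of all samples, a count of 0 allows a level of up to 0.0152 CPM.

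Per length, the deposited RPKM values allowed levels of the members to be compared. IRX3 averaged 2.002 RPKM in DU145KO+α2, 0.885 RPKM in DU145KO and 0.299 RPKM in DU145KO+vector. IRX5 averaged 0.347, 0.175 and 0.160 RPKM in the same order. The RPKM of IRX3 exceeded that of IRX5 in all 12 samples, by 3.77 to 9.98 times in DU145KO+α2, 2.17 to 14.3 times in DU145KO and 1.04 to 2.81 times in DU145KO+vector. The value of 14.3 came from replicate 1 of DU145KO, where IRX5 had 3 counts, at the floor, and the next highest ratio of that line was 5.21. Even in DU145KO+α2 the IRX3 level was modest, since 46% of the 21039 genes with any read had a lower mean RPKM there, compared with 38.8% in DU145KO and 31.5% in DU145KO+vector. For IRX5 these shares were 32%, 26.5% and 26.6%. In bulk RNA, fewer cells with a transcript and less transcript per cell cannot be told apart.

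**Figure D2:**
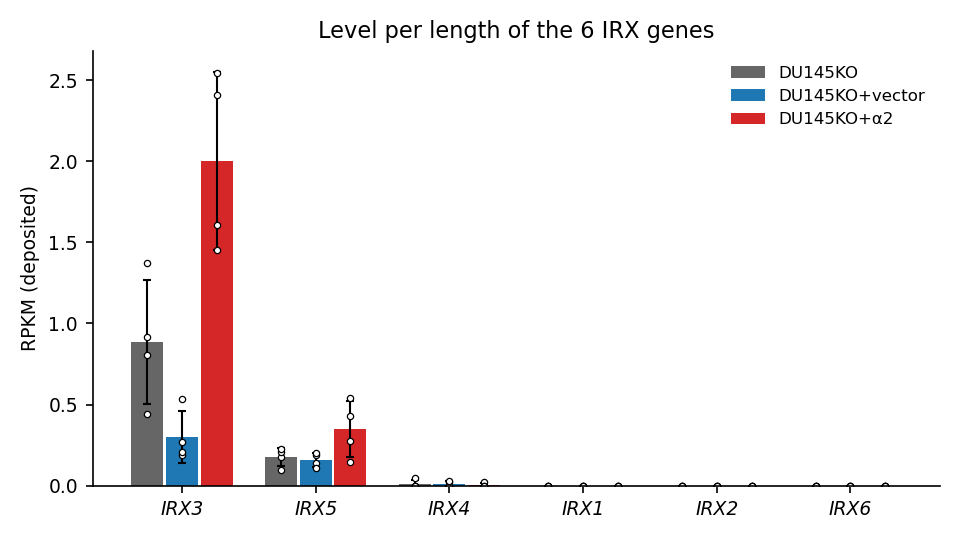
Deposited RPKM (read counts scaled to gene length and library size) of the 6 Iroquois genes, by line. Bars are means, error bars the SD and points the 4 samples of each line. IRX3 was above IRX5 in every sample, with a ratio of 1.04 to 2.81 in DU145KO+vector and 3.77 to 9.98 in DU145KO+α2.

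Around the chromosome 16 cluster, 22 other genes of the table lay within 1 Mb of IRX3 or IRX6 or between them. Of these, 8 had no read in any sample, 13 (those 8 included) never exceeded 3 counts, and 7 were tested. None of the 7 was called in any of the 3 comparisons by edgeR, by voom with limma or by DESeq2. Of all tested genes, edgeR called 2.21%, 2.1% and 0.835%, so 0 of 7 says little about the neighbours. An unadjusted edgeR p below 0.05 was found for 1 of the 7 (CRNDE) in each comparison. The shares of all tested genes were 24.91%, 21.36% and 15.03%. Their median log2 fold change was -0.03 for DU145KO+α2 against DU145KO+vector, -0.02 against DU145KO and 0.03 for DU145KO+vector against DU145KO, close to the medians of all tested genes, which were within 0.01 of 0. FTO, an RNA demethylase gene whose introns hold elements that contact IRX3, was measured at 46.0 to 60.2, 49.1 to 69.8 and 50.4 to 62.0 CPM in DU145KO+α2, DU145KO+vector and DU145KO, and did not pass the test in any comparison (edgeR, adjusted p = 0.846, 0.751 and 0.934 for the 3 comparisons). LPCAT2, a lysophospholipid acyltransferase gene beyond IRX6, had a log2 fold change of -0.28 (adjusted p = 0.241) against DU145KO+vector, and the metalloproteinase gene MMP2, next to IRX6, had no read in any sample.

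CRNDE was the only one of the 7 with an adjusted p below 0.05. It is a long noncoding RNA that was named for its higher level in colorectal tumours. Its counts were 208, 176, 197 and 184 in DU145KO+α2, 175, 86, 149 and 102 in DU145KO+vector, and 96, 86, 96 and 106 in DU145KO. All DU145KO+α2 samples lay above all DU145KO samples, and the DU145KO+vector samples overlapped both. The level was 11.3 ± 1.75, 7.86 ± 1.57 and 5.92 ± 0.487 CPM in the same order of lines (mean ± SD, n = 4 each). CRNDE was 1.90-fold higher in DU145KO+α2 than in DU145KO (log2 fold change 0.92, SE 0.16, edgeR adjusted p = 0.00152) and 1.42-fold higher than in DU145KO+vector (log2 fold change 0.51, SE 0.15, adjusted p = 0.0404), under the 2-fold limit in both. An adjusted p below 0.05 at any fold change was reached by 8.17% of all tested genes in the former comparison and by 11.9% in the latter. The adjusted p against DU145KO+vector rose above 0.05 in 6 of the 12 unblocked fits that left out a sample (DU145KO+α2 replicates 1, 3 and 4 and DU145KO+vector replicates 2, 3 and 4), up to 0.129. With the replicate block and all samples, this log2 fold change was 0.51 (SE 0.11, edgeR adjusted p = 0.000993). An adjusted p below 0.05 was then reached by 26.55% of all tested genes. Between DU145KO+vector and DU145KO the log2 fold change was 0.42 (SE 0.16, edgeR adjusted p = 0.213), and 2.34% of all tested genes passed 0.05. With the replicate block it was 0.40 (SE 0.12, edgeR adjusted p = 0.0242), and 13.44% of all tested genes passed. Both IRX3 and CRNDE had their highest mean in DU145KO+α2, but the lowest mean was in DU145KO+vector for IRX3 and in DU145KO for CRNDE. The samples of these lines overlapped for both genes. Without the block neither gene passed 0.05 between them (edgeR, adjusted p = 0.0523 for IRX3 and 0.213 for CRNDE). With the block both did (edgeR, adjusted p = 0.0287 and 0.0242). Whether reads were counted by strand is not given in the sources used here, but CRNDE and IRX5 shared no exon base.

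**Figure D3:**
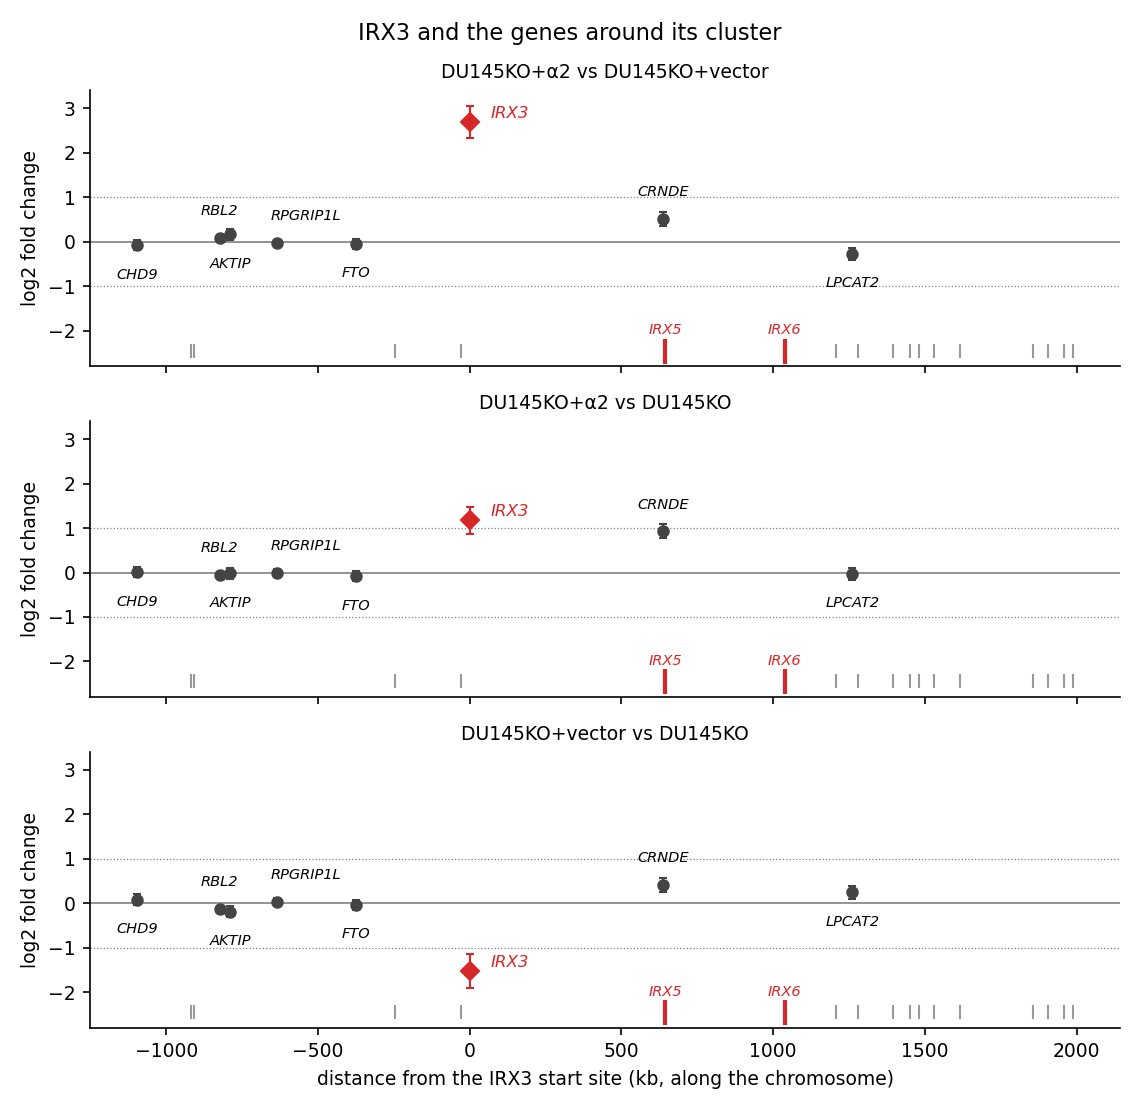
Log2 fold change (± SE) of IRX3 and of the 7 tested genes within 1 Mb of its cluster against the distance of the gene's midpoint from the IRX3 start site in kb, for the 3 comparisons. Ticks at the bottom stand for genes not tested, IRX5 and IRX6 among them, and dotted lines mark a 2-fold change. IRX3 stood at 2.68, 1.17 and -1.52 while the other tested genes, CRNDE apart, stayed between -0.28 and 0.24.

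Called genes lay farther away on chromosome 16. Within 5 Mb of the cluster 57 genes were tested, and 1, 3 and 1 were called in the 3 comparisons, where 2.21%, 2.1% and 0.835% of all tested genes were. They were the metallothionein gene MT1M, 1.3 Mb from it, which fell by 1.16 on the log2 scale against DU145KO+vector (SE 0.25, edgeR adjusted p = 0.00530) and by 1.73 against DU145KO (SE 0.23, adjusted p = 0.000248), the metallothionein gene MT1A, which fell by 1.78 against DU145KO (SE 0.49, adjusted p = 0.0332), and the HMG-box gene TOX3, 1.74 Mb from the cluster. TOX3 fell by 1.92 in DU145KO+α2 (SE 0.33, adjusted p = 0.00153) and by 1.48 in DU145KO+vector (SE 0.31, adjusted p = 0.0203), each against DU145KO. All 3 genes thus moved in the direction opposite to IRX3 in DU145KO+α2 against DU145KO. That direction was the common one, since 246 of the 309 genes called in this comparison were lower. MT1M and MT1A belong to a family of similar genes, among which short reads can be split.

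The chromosome 5 cluster gave reads only for IRX4. Of the 29 other genes within 1 Mb of it or between its members, 9 had no read, 13 (those 9 included) never exceeded 3 counts and 13 were tested, with 0 called in any comparison by edgeR, voom or DESeq2 and 4, 5 and 1 with an unadjusted edgeR p below 0.05, where 24.91%, 21.36% and 15.03% of all tested genes had one. By edgeR, 2.21%, 2.1% and 0.835% of all tested genes were called. The median log2 fold changes of the 13 were 0.12 and 0.23 for DU145KO+α2 against DU145KO+vector and DU145KO and 0.09 for DU145KO+vector against DU145KO. An adjusted p below 0.05 was reached by LOC728613, a pseudogene related to PDCD6, with a log2 fold change of 0.46 (adjusted p = 0.0195) against DU145KO+vector and 0.51 (adjusted p = 0.0137) against DU145KO. The former was lost without replicate 3 of DU145KO+α2 or replicate 2 or 4 of DU145KO+vector, with an adjusted p of up to 0.0695. SDHAP3, a pseudogene related to SDHA, reached 0.67 (adjusted p = 0.0250) against DU145KO, and lost it without replicate 1 or 2 of DU145KO or replicate 4 of DU145KO+α2, with an adjusted p of up to 0.0741. With the replicate block, 5 of the 13 genes had an adjusted p below 0.05 against DU145KO+vector (LOC728613, SDHAP3, NDUFS6, NKD2 and TRIP13), 4 against DU145KO (LOC728613, SDHAP3, BRD9 and LPCAT1) and 1 (NKD2) for DU145KO+vector against DU145KO, and so did 26.55%, 22.31% and 13.44% of all tested genes. Reads of such copies can stem from the parent genes, so LOC728613 and SDHAP3 are uncertain. C5orf38, which starts beside IRX2 on the other strand, had no read, and NDUFS6, a subunit gene of respiratory complex I next to IRX4, had log2 fold changes of -0.22, -0.08 and 0.14 with adjusted p-values of 0.110, 0.648 and 0.493 without the block. ADAMTS16, a secreted protease gene beyond IRX1, averaged 3.73, 4.497 and 4.11 CPM in DU145KO+α2, DU145KO+vector and DU145KO, with an adjusted p of 0.467 against DU145KO+vector. Within 5 Mb 34 genes were tested, of which AHRR, the repressor of the aryl hydrocarbon receptor, was the only one called in any comparison, 1.44 Mb away and higher by a log2 fold change of 1.21 (SE 0.20, adjusted p = 0.00137) against DU145KO+vector.

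Other homeobox genes of the TALE class, from the MEIS, PBX, PKNOX, TGIF and MKX genes, were listed as relatives of the Iroquois genes. Of 11 such genes, 10 were tested, and 0 were called in any of the 3 comparisons by edgeR, voom or DESeq2, where 2.21%, 2.1% and 0.835% of all tested genes were called in either direction. By adjusted p below 0.05 at any fold change, 2 of 10 passed for DU145KO+α2 against DU145KO+vector, 1 against DU145KO and 1 for DU145KO+vector against DU145KO, where 11.9%, 8.17% and 2.34% of all tested genes passed. At an unadjusted p below 0.05 these counts were 3, 3 and 3, against 24.91%, 21.36% and 15.03% of all tested genes, and the median log2 fold changes were 0.06, 0.04 and -0.02.

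PBX3 encodes a cofactor that binds DNA together with HOX proteins. PBX3 counts were 901, 1058, 866 and 948 in DU145KO+α2, 1589, 1306, 1793 and 1502 in DU145KO+vector, and 997, 1011, 1125 and 1287 in DU145KO. PBX3 was thus highest in DU145KO+vector, the line in which IRX3 was lowest, and the CPM values of the 3 lines did not overlap. Its log2 fold change was -0.82 (SE 0.08, adjusted p = 2.01e-05) for DU145KO+α2 against DU145KO+vector and 0.51 (SE 0.08, adjusted p = 0.00317) for DU145KO+vector against DU145KO. Against DU145KO the DU145KO+α2 value was -0.31 (SE 0.08, adjusted p = 0.0298). This adjusted p rose above 0.05, to at most 0.106, in 6 of the 12 unblocked fits that left out a sample. These were the fits without replicate 1, 3 or 4 of DU145KO or 1, 2 or 3 of DU145KO+α2. With the replicate block and all samples the value was -0.30 (SE 0.06, edgeR adjusted p = 0.000729), where 22.31% of all tested genes passed 0.05.

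TGIF2, a repressor in TGF-β signalling, had a log2 fold change of 0.56 (SE 0.11, adjusted p = 0.00310) for DU145KO+α2 against DU145KO+vector. For DU145KO+vector against DU145KO it was -0.32 (SE 0.11, adjusted p = 0.158; adjusted p = 0.0368 with the replicate block). MKX, the tendon gene Mohawk, averaged 0.6002 CPM where α2 was restored and 1.63 ± 1.48 CPM with the knock-out alone (n = 4 each), where replicate 3 held 62 of the 106 reads. It did not pass the test (log2 fold change -1.42, SE 0.54, adjusted p = 0.137), but was called lower with the replicate block (-1.35, SE 0.33, adjusted p = 0.00549) and without replicate 4 of DU145KO (-1.70, adjusted p = 0.0480). Without replicate 3 of DU145KO the value was -0.57 (adjusted p = 0.5001). The remaining 7 tested genes, MEIS1, MEIS2, MEIS3, PBX2, PBX4, PKNOX1 and TGIF1, had no adjusted p below 0.05 in any comparison without the block. With it, TGIF1 had one for DU145KO+α2 against DU145KO+vector (log2 fold change 0.20, adjusted p = 0.00975) and MEIS2 for DU145KO+vector against DU145KO (0.30, adjusted p = 0.0415).

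**Figure D4:**
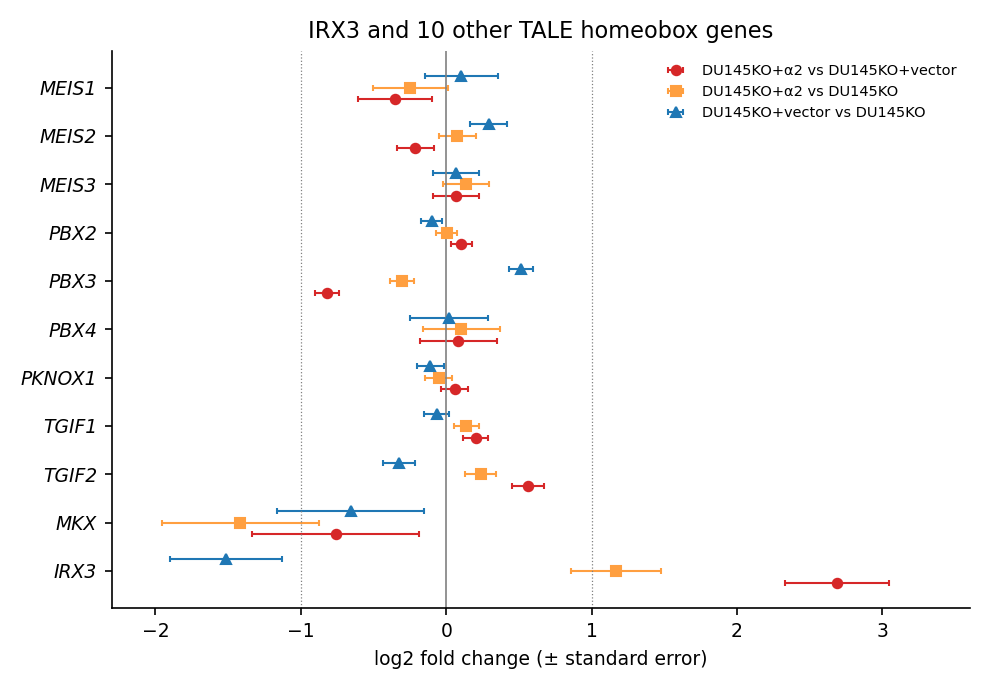
Log2 fold change (± SE) of 10 tested TALE class homeobox genes beside IRX3, for the 3 comparisons, with a 2-fold change marked. PBX3 stood at -0.82 and -0.31 in the comparisons of DU145KO+α2 with DU145KO+vector and DU145KO.

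A list of 7 genes known to be regulated by, or to repress in turn, IRX3 or IRX5 in heart, neural tube or fat cells was read beside the members. For 6 of them no sample exceeded 3 counts, so only GJA1 could be tested. GJA1 encodes the gap junction protein connexin 43, which Irx3 is known to repress in the heart. Its counts were 19, 14, 23 and 21 in DU145KO+α2, 18, 4, 11 and 9 in DU145KO+vector, and 53, 38, 36 and 36 in DU145KO. Both transfected lines lay below all DU145KO samples and overlapped each other. GJA1 fell by 1.95 on the log2 scale in DU145KO+vector against DU145KO (SE 0.32, edgeR adjusted p = 0.00362), the comparison in which IRX3 was also lower. It fell by 1.15 in DU145KO+α2 against DU145KO (SE 0.29, adjusted p = 0.01996, where 1.67% of all tested genes were called lower), a call that was lost without replicate 1 of DU145KO (adjusted p = 0.0684) or replicate 2 of DU145KO+α2 (adjusted p = 0.0656). Against DU145KO+vector the log2 fold change was 0.79 (SE 0.34, adjusted p = 0.163), and 0.83 (adjusted p = 0.0482) with the replicate block, below 2-fold. By their means, the lines did not stand in fully opposite order for GJA1 and IRX3. In DU145KO+α2 against DU145KO, GJA1 was lower and IRX3 higher. In each of the other comparisons the fold changes of GJA1 and IRX3 had the same direction. Whether IRX3 acts on GJA1 in these lines was not tested.

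The genes whose pattern was most like that of IRX3 were sought among the other 14731 tested genes by the Pearson correlation of log2 CPM over the 12 samples, a description that the differences between the 3 lines dominate. The leading 5 were CEMIP (r = 0.967), which takes part in hyaluronan breakdown, AMPH (0.967), the endocytosis gene amphiphysin, SEMA3B (0.961), a secreted semaphorin, TLE4 (0.960), a Groucho family corepressor, and PTK2B (0.957), a kinase of the focal adhesion kinase family. They lie on chromosomes 15, 7, 3, 9 and 8, none of them that of IRX3. All 5 had their highest mean in DU145KO+α2, then DU145KO, then DU145KO+vector, as for TLE4 with 12.5, 9.16 and 5.65 CPM and for CEMIP with 289, 131 and 52.4 CPM. That shared order follows from choosing them by their likeness to IRX3 and is not a further result. By Spearman's correlation 2 of the 5 stayed among the leading 5. ITGA2 itself ranked 489 (r = 0.782) and CRNDE 1933 (r = 0.534). On the linear CPM scale, CRNDE had a Pearson r of 0.67 and a Spearman rho of 0.60 with IRX3, beside the 0.67 and 0.52 of IRX5.

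Among the 5 endothelial markers, the means of CDH5 and KDR stood in the same order of lines as IRX3. The summed level of the list was 10.7 to 15.5, 1.27 to 2.71 and 4.03 to 5.03 CPM in DU145KO+α2, DU145KO+vector and DU145KO, and CDH5 alone averaged 9.90, 0.153 and 1.27 CPM in these lines. Without CDH5 the summed level was 2.40 to 3.79, 1.09 to 2.55 and 2.83 to 3.80 CPM, not in the order of IRX3. PECAM1 averaged 0.6998, 0.772 and 0.881 CPM and KDR 2.26, 1.03 and 2.17 CPM in these lines, and the endothelial genes TEK and VWF had at most 4 counts in any sample. KDR was called higher against DU145KO+vector (log2 fold change 1.14, SE 0.29, edgeR adjusted p = 0.0183), where 1.38% of all tested genes were. Against DU145KO its log2 fold change was 0.05 (SE 0.27, edgeR adjusted p = 0.943). The samples were spheroids of DU145 lines, so these levels are not read as a share of endothelial cells. A link of these genes to IRX3 was not tested.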

How the data were processed

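Poly(A) RNA of 12 spheroid samples had been sequenced from stranded libraries with single-end reads. Per the labels and methods, the authors called bases with bcl2fastq 1.8.4, aligned reads to hg38 with TopHat 2.1.0 and counted uniquely aligned reads per gene with Subread 1.5.0. They deposited the read counts without normalization, and RPKM values made after TMM normalization. Counts were used for all tests and the deposited RPKM for levels between genes.

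The 14732 genes kept by filterByExpr (minimum count 10) were fitted with edgeR 4.0.16 (R 4.3.3, TMM, robust quasi-likelihood test, two-sided) in one model of the 3 lines, with Benjamini-Hochberg adjustment. IRX5 was compared by exact permutation tests of CPM. Replicate totals are those given with the results, and all 18 pairs of replicates differed by more than sampling noise (chi-square per degree of freedom 6.98 to 23.7). Replicate numbers pair the samples: the deviations of all 12 same-numbered pairs from the group means correlated, with r of 0.135 to 0.554, so blocked values are given where they change a call. Positions came from GENCODE, and neighbours and promoters from RefSeq GRCh38.p14, with 99.3% of genes matched.

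Alternatives were DESeq2 size factors or library size alone, DESeq2 1.42.0, voom with limma 3.58.1, other filters and call rules, a fit of the compared lines only, the replicate block, a window of 5 Mb, Spearman's correlation, and the omission of single samples. Scripts were tested on simulated data. Named genes were the members, tested genes of the TALE and target lists, neighbours that were called or next to a member, the 5 genes most like IRX3, and ITGA2. LOC728613, SDHAP3, TERT, NKD2, TRIP13, BRD9, LPCAT1 and the markers named singly were added after their values were seen. Some genes within this rule are not reported here. The members and lists were chosen with earlier results of these data known.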

Additional observations from a re-analysis of the deposited data

Results flagged for a closer look

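In 51 groups of 4 samples, the highest or lowest sample was compared with the nearest other by Dixon's ratio (gap over range, 95% critical value). It stood apart in 6 groups, where chance gives about 2.55. For IRX4 the ratio was 1.0 in DU145KO+α2 through 1 read in replicate 2, and 1.0 in DU145KO through 2 reads in replicate 4, with all other samples of those lines at 0. A single sample with any read among samples at 0 always gives 1.0, so these flags say nothing beyond reads below the floor. FTO stood apart in replicate 2 of DU145KO+vector, at 69.8 CPM against 49.1 to 51.6 CPM (ratio 0.879). GJA1 stood apart in replicate 1 of DU145KO, at 3.50 CPM against 2.11 to 2.32 CPM (0.847), 1 of the 2 replicates without which its call in DU145KO+α2 was lost. LOC728613 stood apart in replicate 3 of DU145KO+α2, at 45.2 CPM against 33.1 to 34.8 CPM (0.860). AMPH stood apart in replicate 1 of DU145KO+vector, at 3.77 CPM against 1.44 to 1.72 CPM (0.878), the sample in which IRX3 was also highest for that line. AMPH was chosen for its likeness to IRX3, so this match is not a further result.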

How the results depend on the processing

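The replicate block, which pairs samples of the same number, raised the members called for DU145KO+vector against DU145KO from 0 to 1 (IRX3), as did library size alone, the DESeq2 Wald test, no filter on low counts and a fold change above 2 alone. It also raised the TALE genes called for DU145KO+α2 against DU145KO from 0 to 1 (MKX), and changed no other count of calls among the members, the lists and the neighbours within 1 Mb. It also brought CEMIP past both thresholds in the comparisons of each transfected line with DU145KO. With each sample left out in turn, the count called ranged from 0 to 1 for the members in both comparisons with DU145KO, for the TALE list and the described targets in DU145KO+α2 against DU145KO, for the chromosome 16 neighbours in the same comparison (CRNDE at 1.03 without replicate 2 of DU145KO+α2), and for the chromosome 5 neighbours against DU145KO+vector (the telomerase gene TERT at 1.13 without replicate 3 of DU145KO+α2, edgeR adjusted p = 0.0383). Nothing is read from the member count in any comparison. IRX3 was chosen by its level in DU145KO+α2, and the DU145KO+vector samples entered the fold change by which it stood out. The medians against DU145KO+vector ranged from -0.0384 to 0.0822 for the chromosome 16 neighbours and from 0.0775 to 0.244 for those on chromosome 5. The chromosome 5 median against DU145KO was unstable: 0.0297 to 0.278 with a sample left out, 0.0339 without a filter, 0.0572 with at least 10 counts in every sample and 0.121 within 5 Mb. A window of 5 Mb gave 1, 3 and 1 called genes of 57 tested on chromosome 16 in the 3 comparisons. On chromosome 5 it gave 1 of 34 against DU145KO+vector. Of all tested genes, 2.21%, 2.1% and 0.835% were called in the 3 comparisons. Of the 5 genes most like IRX3, 2 were shared under Spearman's correlation. The mean IRX5 RPKM in DU145KO+vector was 0.116 with library size and reference exon length in place of the deposited 0.160. The filter of 10 counts in every sample left out IRX3 and GJA1.

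Of the values recomputed for single genes, 846 stayed on the same side of the threshold, 11 newly passed it and 7 no longer did. None that passed in either fit changed sign, but 22 of the 846, from 11 comparisons of uncalled genes (FTO and TALE genes), did. The causes of these changes were not tested. Depth limits IRX5, at 21 reads in all of DU145KO+vector, and no value of IRX4 was above the floor.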
